A study of Mus musculus with 20 samples.

Results

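The carbonic anhydrases examined here were the 8 genes *Car2*, *Car3*, *Car4*, *Car5b*, *Car8*, *Car9*, *Car13* and *Car14*, chosen by symbol from a count table of 23420 genes. All 8 passed the filter on low counts, and they were tested among 13590 genes. RNA was sequenced from whole hearts of male wild type C57BL/6 mice at 9 weeks of age. The 10 control mice ate the control diet and the 10 iron-deficient anemic (IDA) mice the iron-deficient diet, both for 6 weeks from 3 weeks of age. The labels give the iron of the deficient diet as under 2 ppm in 1 field and over it in another. Males of a single strain on diets begun at weaning are the only animals compared. The question was whether carbonic anhydrases differed between the diets, and whether the other isoforms followed *Car2* among IDA mice.

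Carbonic anhydrases interconvert CO2 and water with bicarbonate and a proton, and so buffer cells and speed the removal of acid and CO2. *Car2*, *Car3* and *Car13* encode cytosolic enzymes, *Car5b* a mitochondrial one, and *Car4*, *Car9* and *Car14* enzymes that face the outside of the cell. *Car8* encodes a related protein that has lost the catalytic activity. *Car2* is abundant in red blood cells, *Car3* in fat and skeletal muscle, and *Car9* is a classical target of the hypoxia-inducible factor HIF-1.

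Total counts lay between 6682177 and 8960688 read pairs per mouse, with a median of 7902932 in control and 6806177 in IDA mice. The dependence of a library on gene length also differed. Each gene's log2 level was taken as a deviation from its mean over all mice. The slope of these deviations on log2 exonic length was above 0 in all control mice and below 0 in all IDA mice. The signs compare mice and do not say whether level rises with length within a library. Differences of the *Car* genes and of the other genes named are given with and without a correction for gene length. Library numbers in the column headers formed 2 runs, one with 5 control and 7 IDA mice and the other with 5 control and 3 IDA mice. Cardiomyocyte markers summed to between 5343 and 9633 CPM (counts scaled to the size of the library) in every mouse, and lung markers to at most 3.12 CPM.

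*Car13*, *Car3* and *Car2* lie side by side with *Car1* within 259 kb of chromosome 3 in mm10. *Car13* spans chr3:14641727-14663002, *Car3* chr3:14863538-14872373 and *Car2* chr3:14886426-14900770. *Car14* lies elsewhere on the same chromosome, at chr3:95897800-95904639, and its exons overlap *Aph1a* on the opposite strand. Because counting ignored strand, reads within the overlap cannot be told apart by strand. *Car4* lies at chr11:84957754-84966054, *Car5b* at chrX:163976822-164028010, *Car8* at chr4:8141493-8239041 and *Car9* at chr4:43507026-43513725.

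RefSeq promoters (GRCm38.p6, 250 bases before to 50 after the gene start) were at hand for 4 of the 8 genes, *Car4*, *Car5b*, *Car9* and *Car14*. They are shown because *Car9* is set against other HIF targets in the results. The HIF core letters ACGTG or GCGTG were searched on both strands, where they read CACGT or CACGC on the opposite strand. All 4 promoters hold a match, as do 43.8% of all 32851 promoters. *Car9*, *Car4* and *Car14* each have 1 match, to ACGTG, and *Car5b* has 5, all to GCGTG. None of the 4 holds CACGTG, the palindrome that ACGTG is part of. One window per gene is printed 5′ to 3′ on the gene's strand, with the match in capitals.
Car9 (chr4:43506996-43507025, plus strand): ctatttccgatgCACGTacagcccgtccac
Car4 (chr11:84957744-84957773, plus strand): ggagccgactccCACGTctagccgtccggg
Car14 (chr3:95904675-95904704, minus strand): cacccccctcctCACGTacaccggtttcga
Car5b (chrX:164028038-164028067, minus strand): ggcttctgggagGCGTGgcacgggcgccaa
The matches are letters in a window and not shown to be bound.

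Levels were compared between genes as CPM per kilobase of exon. In control hearts *Car14* was highest, with a median of 88.2 CPM per kb and a range of 83.0 to 99.2. *Car4* came next at 41.0, with a range of 36.7 to 48.5. *Car2* (10.3), *Car8* (10.1) and *Car3* (9.70) followed with overlapping ranges. *Car13* (1.05), *Car5b* (0.943) and *Car9* (0.581) were lowest and also overlapped. Thus a membrane enzyme, *Car14*, made up 54.2% of the summed level of the 8 genes in the median control mouse and 55.2% in the median IDA mouse. In IDA hearts the median of *Car2* was 21.6 CPM per kb, and its range of 9.18 to 52.3 overlapped those of both *Car4* and *Car8*. The share of *Car2* in the sum had a median of 6.05% in control mice and 12.6% in IDA mice.

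**Figure D1:**
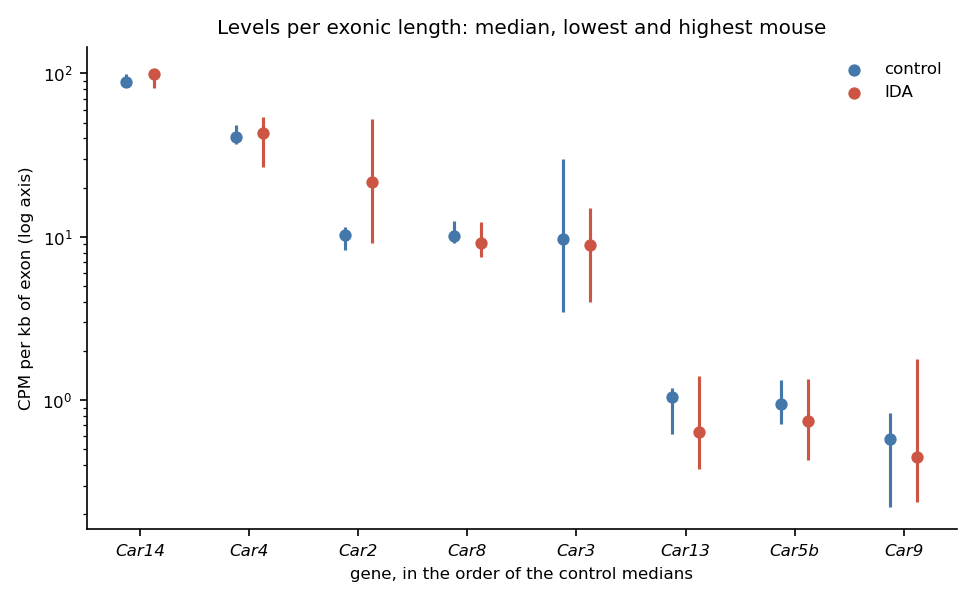
Level of each carbonic anhydrase in CPM per kb of exon (log axis), with the median as a point and the lowest and highest mouse as the ends of the line, for 10 control and 10 IDA mice. Car14 and Car4 are highest in both groups, and the IDA range of Car2 runs from 9.18 to 52.3.

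Of the 8 genes, 1 (*Car2*) passed the test between diets (edgeR's quasi-likelihood test, adjusted p below 0.05 over all tested genes), where 67.5% of all tested genes did. The median log2 fold change (IDA minus control) over the 8 genes was -0.07, and that of all tested genes was 0.02. In none of the 8 were the groups of mice separate, compared with 11.3% of all tested genes. Both the edgeR and DESeq2 p were below 0.01 in 1 of the 8, *Car2*, against 59.8% of all tested genes (30.6% higher in IDA). With the length correction 2 of the 8 were called, *Car2* and *Car8*, both higher, against 55% of all tested genes (31.5% higher and 23.5% lower). Correction for length and GC content together called 3 of the 8, *Car2* and *Car8* higher and *Car4* lower, against 48.1%.

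*Car2* was the gene that rose. Control mice lay between 14.9 and 20.6 CPM, with a median of 18.4 and a mean of 18.3 ± 1.52 (SD, n = 10). IDA mice lay between 16.4 and 93.6 CPM, with a median of 38.7 and a mean of 42.7 ± 26.4 (SD, n = 10). In order of replicate number, IDA mice 1 to 10 had 29.7, 53.6, 18.1, 47.7, 71.3, 18.5, 57.4, 16.4, 93.6 and 21.1 CPM. The groups overlapped, with 7 of the 10 IDA mice above the highest control and IDA mice 3, 6 and 8 inside the control range. The log2 fold change was 1.23 ± 0.27 (SE, adjusted p = 0.000338 by edgeR), and 1.08 ± 0.27 with the length correction (adjusted p = 0.0019). It was 1.36 in the first run of library numbers and 0.85 in the second, and 1.02 to 1.32 when any 1 mouse was left out. IDA mouse 9, with the highest *Car2*, had a skeletal muscle marker mean of 3.23 log2 CPM. The other IDA mice had 2.20 to 2.58, and the part of this in its *Car2* level was not tested. In bulk tissue, more cells of a type and more RNA per cell cannot be told apart.

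Red cell markers were also higher in IDA mice. Of 22 erythroid markers listed, 18 were in the table and 7 passed the filter, of which 5 rose and 2 fell, or 5 rose and 0 fell with the length correction. Of all tested genes 35% rose and 32.5% fell, or 31.5% and 23.5% with the length correction. The summed level of the erythroid markers was 611 to 754 CPM in control and 605 to 1226 CPM in IDA mice, and *Hba-a1*, *Hba-a2* and *Hbb-b2* were at 0 in every mouse. *Slc4a1*, the chloride and bicarbonate exchanger of the red cell membrane, had 2.74 ± 0.84 CPM in control and 45.1 ± 41.8 CPM in IDA mice (SD, n = 10 each). *Alas2*, the first enzyme of heme synthesis in red cell precursors, had 75.9 ± 19.4 and 203 ± 80.9 CPM. IDA mice fell into a set of 4 with marker means of 4.16 to 4.54 log2 CPM and a set of 6 with 5.24 to 6.43, and the 6 had the 6 highest *Car2* levels. Within the 6, *Car2* had Pearson's r = 0.96 with the mean (exact permutation p = 0.00417, n = 6) and Spearman's rho = 0.94 (exact permutation p = 0.0167). Adjusted over all 13590 tested genes, these permutation p-values were 0.96 and 0.952, so the relation missed the threshold. With 6 mice no gene alone could pass this adjustment, so it cannot decide the relation. The r was 0.74 without the 2 mice most distant from the median. In control mice r was -0.11 (permutation p = 0.735, n = 10), and the difference between groups was not tested. When this mean entered the fit beside diet, *Car2* reversed its direction (log2 fold change -0.44, edgeR adjusted p = 0.029). Control mice had marker means of 3.22 to 4.06, below every IDA mouse. Because the mean does not overlap between diets, that fit cannot tell diet and marker mean apart. Platelet markers, of which 8 of 8 tested rose, had a mean whose r with *Car2* among IDA mice was -0.07 (permutation p = 0.847, n = 10).

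**Figure D2:**
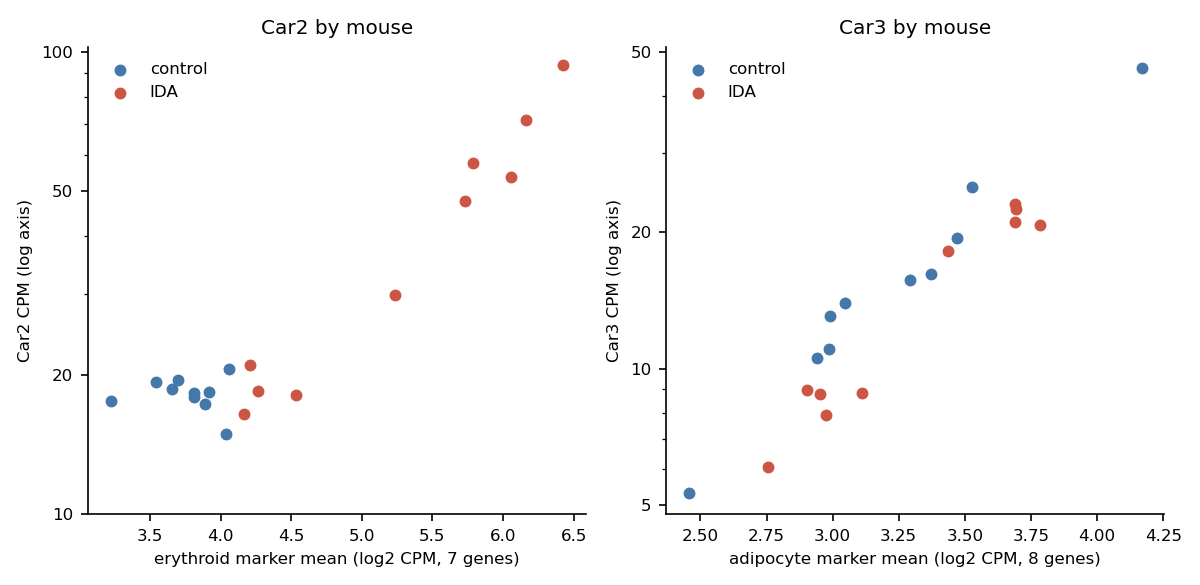
Left, Car2 in CPM (log axis) against the mean log2 CPM of 7 erythroid markers, and right, Car3 in CPM (log axis) against the mean log2 CPM of 8 adipocyte markers, with a point for each of 10 control and 10 IDA mice. The 6 IDA mice with marker means above 5 hold the 6 highest Car2 levels, and Car3 rises with its markers among control mice.

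*Specc1*, *Fam46c* and *Apol11b* were the genes whose deviations from the group means were most like those of *Car2* over the 20 mice (r = 0.94, 0.93 and 0.92).

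No other isoform followed *Car2* among IDA mice at the adjusted threshold. Of 7 relations, 0 passed (permutation tests, adjusted over all 13589 other genes), and 1 had an unadjusted p below 0.05, in Spearman's rho alone. A lone gene could not pass this adjustment, because the smallest permutation p possible was 1e-05, so it cannot decide an isoform's relation. By Pearson's r no gene passed in the whole table, and 4.47% of genes had an unadjusted p below 0.05. The same share for Spearman's rho is not given. *Car3* had the highest r, at 0.46 (permutation p = 0.174, adjusted p = 0.888, rho = 0.48 with permutation p = 0.163). Its r was 0.69 once the 2 mice most distant from the *Car2* median were left out. *Car8* had r = 0.26 and rho = 0.20, and *Car5b* r = 0.16 and rho = 0.03. *Car4*, *Car13* and *Car14* had r of -0.27, -0.20 and -0.22, with rho of -0.41, -0.21 and -0.30. *Car9* had the most negative values, with r = -0.36 (permutation p = 0.312) and rho = -0.65 (permutation p = 0.0492, adjusted p = 0.888). The same omission gave an r of 0.37 for *Car8*, 0.27 for *Car5b*, -0.43 for *Car4*, 0.03 for *Car13*, -0.10 for *Car14* and -0.27 for *Car9*. Among the 6 IDA mice with the highest *Car2*, r was 0.12 for *Car3*, -0.20 for *Car8* and -0.14 for *Car5b*. In those 6 mice it was 0.15 for *Car4*, -0.30 for *Car13*, 0.06 for *Car14* and -0.19 for *Car9*.

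*Car3*, the neighbour of *Car2* on chromosome 3, varied widely within both groups. Control mice lay between 5.32 and 46.1 CPM with a median of 14.8, and IDA mice between 6.07 and 23.1 CPM with a median of 13.6. The groups overlapped throughout, and control mouse 3 stood highest. The log2 fold change was -0.26 ± 0.31 (SE, adjusted p = 0.47 by edgeR), and -0.45 ± 0.31 with the length correction (adjusted p = 0.228). It was 0.02 without that mouse. Genes of fat cells were the most like *Car3* over the 20 mice, namely *Cidec*, a lipid droplet protein (r = 0.95), *Cfd*, the secreted protein adipsin (r = 0.93), and *Adipoq*, the hormone adiponectin (r = 0.91). Among control mice *Car3* rose with the mean of 8 adipocyte markers, with r = 0.98 (permutation p = 1e-05, the smallest these permutations can give) and rho = 1.00 (n = 10). The adjusted p over all tested genes was 0.136 for both, the smallest that a lone gene could reach with these permutations. The adjusted value therefore cannot decide the relation. Without the 2 farthest mice r was 0.94. IDA mice fell into sets of 5 with marker means of 2.76 to 3.11 and 3.44 to 3.78 log2 CPM, so no r is given for them. Of 8 adipocyte markers tested, 1 rose and 0 fell, where 35% of all tested genes rose and 32.5% fell. With the length correction 2 rose and 0 fell, against 31.5% and 23.5%. Adipocyte markers summed to 793 to 1030 CPM in control and 897 to 1072 CPM in IDA mice. *Lpl*, a lipase that heart muscle also expresses, made up most of that sum, with a median of 805 CPM in control and 901 CPM in IDA mice.

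*Car13*, the third cytosolic gene, had few reads, with 6 to 26 read pairs per mouse. It lay between 1.43 and 2.74 CPM in control mice (median 2.40) and between 0.866 and 3.25 CPM in IDA mice (median 1.47). Of the IDA mice, 4 lay below the lowest control and 1 above the highest. Its log2 fold change was -0.38 ± 0.21 (SE, adjusted p = 0.108 by edgeR), and -0.45 ± 0.20 with the length correction (adjusted p = 0.0672). It was called when IDA mouse 3 (-0.49) or IDA mouse 4 (-0.54) was left out. *Mcm2*, *Nmrk2* and *Tnc* were the most like it (r = 0.86, 0.84 and 0.83).

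**Figure D3:**
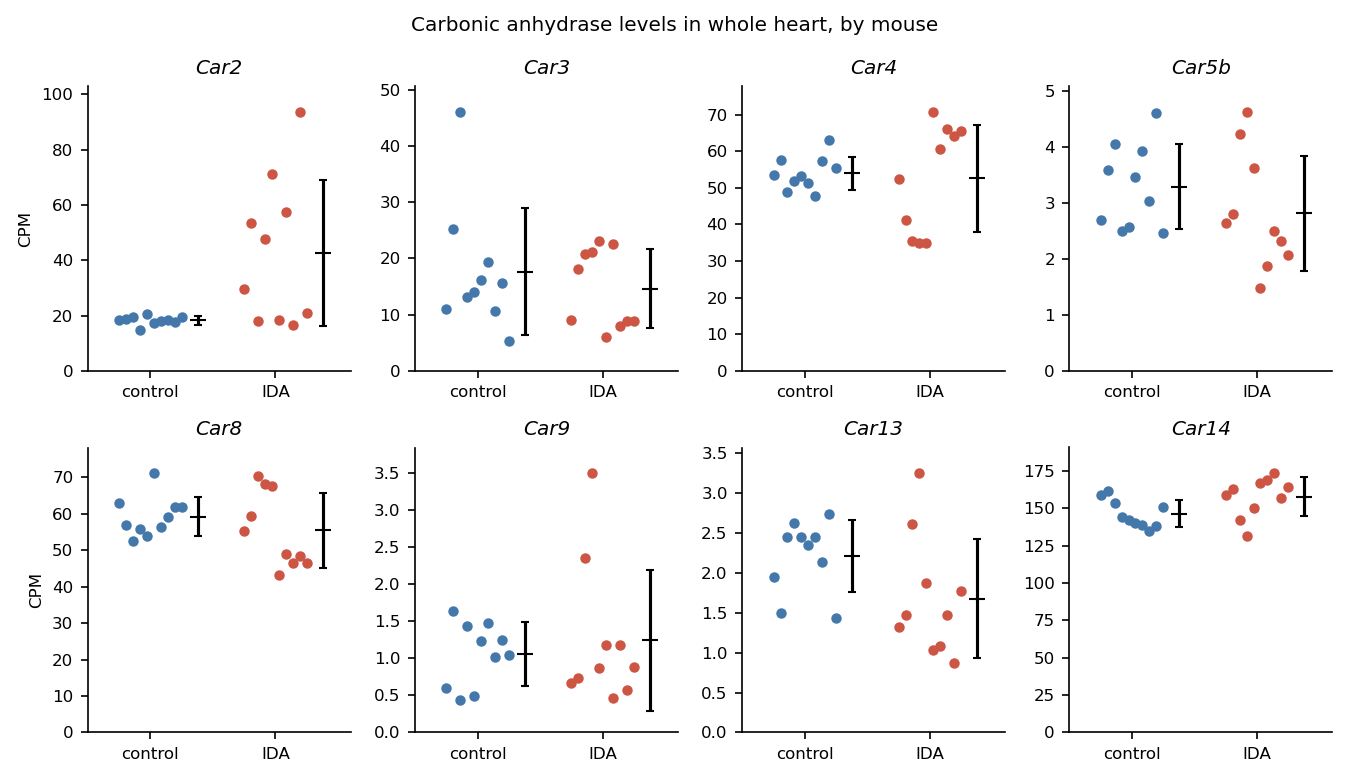
Level of each of the 8 carbonic anhydrases in CPM, with a point for each of 10 control and 10 IDA mice in order of replicate number and the mean ± SD as a black bar. Control and IDA points overlap in every panel, and 7 IDA mice lie above all controls for Car2.

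*Car4*, the enzyme anchored on the outer face of capillary endothelium and muscle membranes, had nearly equal means but a wide spread in IDA mice. Control mice lay between 47.8 and 63.1 CPM, with a median of 53.3. IDA mice 1 to 10 had 52.5, 41.2, 35.5, 34.8, 34.8, 70.8, 60.5, 66.0, 64.2 and 65.7 CPM. Mice 2 to 5 were below the lowest control, and mice 6, 8, 9 and 10 were above the highest. The coefficient of variation was 8.43% in control and 27.9% in IDA mice. The log2 fold change was -0.04 ± 0.12 (SE, adjusted p = 0.774 by edgeR), and -0.29 ± 0.12 with the length correction (adjusted p = 0.0531). *Car4* was called lower with length and GC correction (-0.33, adjusted p = 0.030), with length and the run covariate (-0.34, adjusted p = 0.020), with length and the replicate block (-0.32, adjusted p = 0.0231), and in the second run alone (-0.31, adjusted p = 0.0451). Leaving out IDA mouse 4 or 5 gave 0.01. Endothelial markers summed to 2360 to 2612 CPM in control and 2267 to 2844 CPM in IDA mice. Of 12 tested, 7 rose and 4 fell, where 35% of all tested genes rose and 32.5% fell. With the length correction 6 rose and 1 fell, against 31.5% and 23.5%. *Pde2a*, *Hdac5* and *Fbxo31* were the most like *Car4* (r = 0.92, 0.91 and 0.89), and ranked 21, 56 and 258 after the length correction.

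*Car8* ran opposite to *Car4* across IDA mice. Control mice lay between 52.4 and 71.1 CPM, with a median of 58.0. IDA mice 1 to 10 had 55.4, 59.3, 70.4, 68.2, 67.7, 43.1, 49.0, 46.5, 48.5 and 46.4 CPM. Mice 6 to 10 were below the lowest control, and none was above the highest. The same 5 mice had the 5 highest *Car4* levels among IDA mice. IDA mice 3, 4 and 5 also stood apart on the second principal component (-30.1 to -20.7, with every other mouse at -6.73 or above) and had 7459363 to 7833916 read pairs, against 6682177 to 6806901 in mice 6 to 10. Because IDA mice fell into separate sets in both genes, no correlation is given for the pair there. Among control mice r was 0.25 (permutation p = 0.478, n = 10) and rho 0.35 (permutation p = 0.331), with r = 0.10 without the 2 mice most distant from the *Car4* median. Mice 6 to 10 carry consecutive library numbers in the headers, apart from those of mice 4 and 5 in the same run and of mice 1 to 3 in the other. The part of library number, depth and this component in the pattern was not tested.

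**Figure D4:**
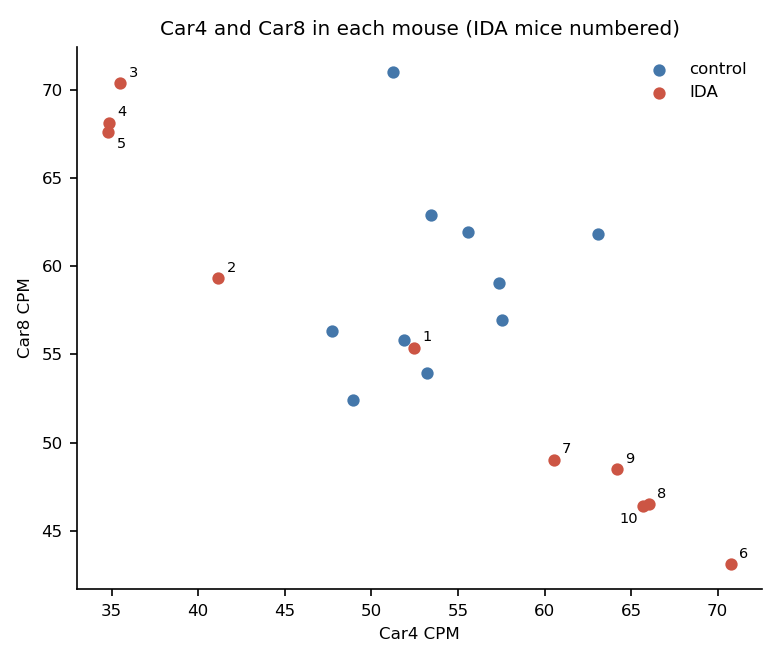
Car8 against Car4 in CPM, with a point for each of 10 control and 10 IDA mice and the IDA mice numbered by replicate. IDA mice 3, 4 and 5 lie at the upper left and mice 6 to 10 at the lower right, while the control mice lie between.

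The direction of *Car8* between diets depended on the correction. Without one its log2 fold change was -0.09 ± 0.09 (SE, adjusted p = 0.351 by edgeR), 0.26 ± 0.09 with the length correction (adjusted p = 0.0186), and 0.45 ± 0.10 with correction for length and GC content (adjusted p = 0.000502). *Car8* is the longest of the 8, with 5722 exonic bases against 1300 in *Car4*. *Cd38*, *Ptger4* and *Nts* were the most like it (r = 0.91, 0.89 and 0.88), and ranked 17, 28 and 22 after the length correction.

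**Figure D5:**
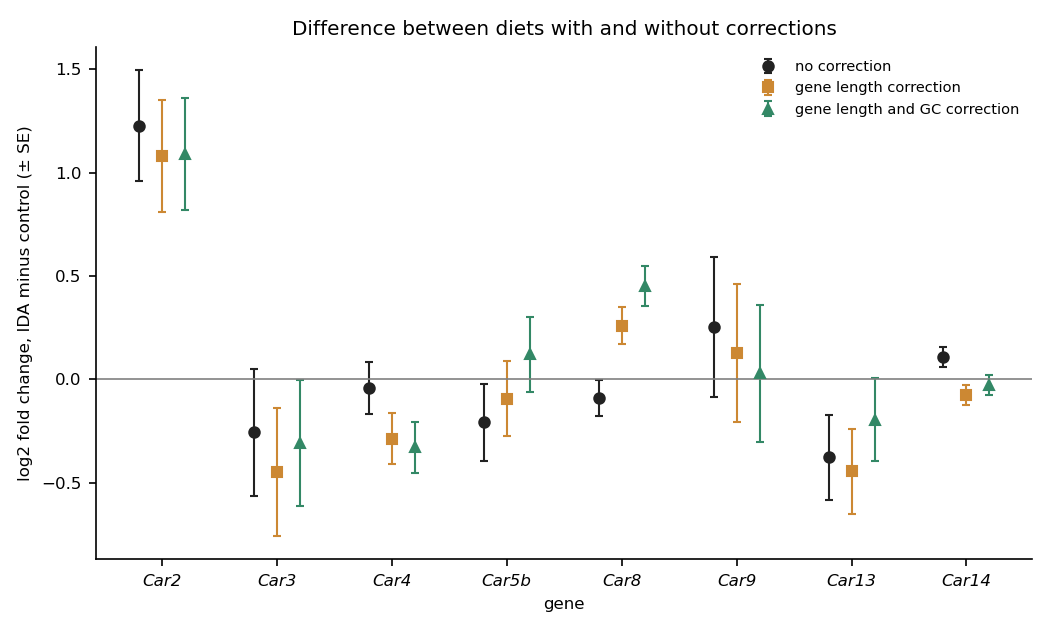
Log2 fold change (IDA minus control, ± SE) of each gene without correction, with the gene length correction, and with correction for gene length and GC content. Car2 stays above 1 in each, and Car8 moves from -0.09 to 0.45.

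*Car5b*, the mitochondrial enzyme, lay between 2.47 and 4.60 CPM in control mice (median 3.25) and between 1.48 and 4.62 CPM in IDA mice (median 2.57). IDA mice 3 and 4 were highest, and 4 IDA mice were below the lowest control. Between diets it differed by -0.21 ± 0.19 on the log2 scale (SE, adjusted p = 0.331 by edgeR), and by -0.09 ± 0.18 with the length correction (adjusted p = 0.682). *Lgals3*, *Krt19* and *Gpm6a* were the most like it (r = 0.88, 0.86 and 0.86).

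*Car14*, the most abundant member, lay between 134.8 and 161.2 CPM in control mice (median 143.4) and between 131.4 and 173.3 CPM in IDA mice (median 160.9). It exceeded the highest control in 5 IDA mice, and IDA mouse 4 fell below the lowest. The log2 fold change was 0.11 ± 0.05 (SE), with an adjusted p of 0.05001 by edgeR and 0.0404 by DESeq2. With the length correction it was -0.08 ± 0.05 (adjusted p = 0.201), so its direction did not hold. *Grb14* and *Crat* were among the most like it (r = 0.96 each), and after the length correction r was 0.95 and 0.64.

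*Car9*, the HIF target, was the lowest member, with 3 to 28 read pairs per mouse. Control mice lay between 0.433 and 1.64 CPM (median 1.14), and IDA mice between 0.467 and 3.50 CPM (median 0.879). IDA mice 3 and 4, at 2.36 and 3.50 CPM, were above every control, and the other 8 lay inside the control range. The log2 fold change was 0.25 ± 0.34 (SE, adjusted p = 0.515 by edgeR), 0.13 ± 0.33 with the length correction (adjusted p = 0.765), and -0.08 without IDA mouse 4. *Hebp2*, *Panx1* and *Shc2* were the most like it (r = 0.83, 0.78 and 0.77).

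HIF targets were called in both directions. Of 28 listed genes, *Car9* included, 26 were tested, and 14 rose and 5 fell, where 35% of all tested genes rose and 32.5% fell. With the length correction 14 rose and 2 fell, against 31.5% and 23.5%. The calls changed members, since 8 were higher and 2 lower in both fits, and *Pdk1*, *Hk2* and *Kdm3a*, named after their values were seen, turned from lower to higher. Their median log2 fold change was 0.19, and 0.13 with the correction. *Egln3*, an oxygen sensor that marks HIF for degradation, had 158 ± 16.4 CPM in control and 264 ± 31.2 CPM in IDA mice (SD, n = 10 each). Its log2 fold change was 0.74 (adjusted p = 1.46e-07 by edgeR), and 0.74 with the length correction. *Ankrd37* rose by 0.99 (0.69 with the correction), *Ndufa4l2*, a mitochondrial protein, by 0.60 (0.30), and *Slc2a1*, a glucose transporter, by 0.31 (0.29). *Pfkfb3*, a regulator of glycolysis, had a log2 fold change of -0.72 (-0.40).

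Among 40 genes of bicarbonate, proton, lactate and CO2 transport, 30 were tested. Of these, 10 rose and 10 fell, shares near the 35% and 32.5% of all tested genes. With the length correction 10 rose and 9 fell, against 31.5% and 23.5%. The median log2 fold change of the 30 was -0.06, and 0.07 with the correction. *Slc4a1* had the largest rise, with a log2 fold change of 4.04 ± 0.57 (SE, adjusted p = 2.21e-06 by edgeR), and 4.26 with the correction. *Slc16a3*, the lactate exporter MCT4, rose by 0.94 (0.92 with the correction), from 6.95 ± 0.92 to 13.3 ± 4.86 CPM (SD, n = 10 each). Lower in IDA mice were *Slc4a7*, a sodium bicarbonate cotransporter, at -1.04 (-0.56 with the correction), *Slc16a4* at -0.93 (-1.02), *Chp2*, a partner of sodium proton exchangers, at -0.72 (-0.99), and *Slc12a2*, a sodium potassium chloride cotransporter, at -0.60 (-0.18).

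The remaining *Car* genes of the table numbered 8, and 3 of them were tested. *Car11*, which like *Car8* encodes a protein without catalytic activity, had a log2 fold change of 0.42 ± 0.10 (SE, adjusted p = 0.00074 by edgeR), and 0.20 with the length correction (adjusted p = 0.058). *Car7* had 0.11 (adjusted p = 0.40), and -0.09 with the correction, and *Car15* 0.36 (adjusted p = 0.10), and 0.08 with it. *Car1*, *Car5a*, *Car6*, *Car10* and *Car12* were below the filter.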

How the data were processed

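Whole-heart RNA-seq of 10 control and 10 IDA mice was analysed. STAR alignments to mm10, freed of PCR duplicates by the authors with samtools, gave the deposited raw counts of read pairs per gene of featureCounts (version 1.4.5-p1, without strand). Groups follow the labels. A second deposited column, per the file headers, gives exonic length. Of the gene names, 27 had become dates and 2 were duplicated.

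A gene was tested if 10 or more mice had 1 CPM or more, in R 4.3.3 with edgeR 4.0.16 (TMM, quasi-likelihood, Benjamini-Hochberg) and DESeq2 1.42.0. CPM values were scaled by TMM, and log2 CPM used a prior count of 2. For the length correction, a mouse's deviations were smoothed on log2 exonic length by loess (span 0.5, degree 1) and the curve entered as offsets, so technical and biological trends on length are both removed. Permutation tests used 100000 resamples and were two-sided. The fits were tested on simulated data. P-values measure the spread between mice.

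The members and lists were chosen with earlier results of these data known. Genes named were all *Car* genes, the 3 most alike each member, up to 6 per pathway list called with and without length correction, and up to 3 abundant markers per list, except that some are not reported here. The paper excluded a mouse of each group that its text does not name, so all were kept. The correction for GC content, the fits using library runs and the set of 6 IDA mice with higher erythroid marker means were chosen after seeing the data.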

Additional observations from a re-analysis of the deposited data

Results flagged for a closer look

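*Car3* in control mouse 3, at 46.1 CPM, lay far above the other 9 control mice, with a gap to the next mouse of 0.512 of the group's range. This was the only such value among 16 groups of mice examined (8 genes in both diets). For normally distributed values chance gives about 1 group in 20, so 1 of 16 is near that share. The adipocyte marker mean was also highest in that mouse, and its part in the result was not tested.

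*Car1*, a cytosolic enzyme abundant in red cells and the neighbour of *Car3*, was below the filter and had 34 read pairs over all IDA mice, against 2 over all control mice. IDA mice 3, 4 and 5 held all 34, with 5, 14 and 15 read pairs, and the other 7 IDA mice had 0. IDA mouse 9, with the highest *Car2*, was among those at 0.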

How the results depend on the processing

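The count of carbonic anhydrases called was 1 and became 2 with DESeq2 size factors, the DESeq2 test, no filter, the length correction, the library run as a covariate, and in the first and the second run alone. It became 3 with the replicate block and length correction together, with length and GC correction, and with run and length together. Leaving out 1 mouse gave 1 to 3, and 8861 to 9293 calls over all genes. All genes called numbered 9176, and 5906 in the second run alone, which holds fewer mice.

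*Car2* reversed only with the erythroid covariate (-0.44), whose values do not overlap between the diets. *Car8* reversed with length (0.26), length and block (0.25), length and GC (0.45), run and length (0.27), library size (0.026) and the second run (0.12). *Car14* reversed under the first 5 of these (-0.075, -0.079, -0.028, -0.070 and -0.0089). *Car4* reversed with the erythroid covariate (0.23) and the first run (0.039), *Car5b* with length and GC (0.12) and the second run (0.070), and *Car3* with the first run (0.072). Without single mice, *Car3* ranged from -0.37 to 0.021, *Car4* from -0.10 to 0.011 and *Car9* from -0.078 to 0.34. *Car9* could not be fitted under filterByExpr, which drops it. The cause was not tested.

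Correlations with *Car2* kept 0 of 7 calls under each alternative, though with all IDA mice a lone gene could not pass the adjustment. With the erythroid mean partialled out, r reversed for *Car3* (-0.31), *Car4* (0.61), *Car5b* (-0.54), *Car8* (-0.62) and *Car14* (0.34). *Car2* had r = 0.96 with that mean within the 6 IDA mice with higher means. Little of the variation of *Car2* was then left, so these reversed values cannot decide the relations. Without the 2 farthest mice *Car13* gave 0.025. Without single mice, r ranged from -0.049 to 0.40 for *Car5b*, -0.40 to 0.076 for *Car13*, 0.35 to 0.74 for *Car3*, 0.11 to 0.54 for *Car8*, -0.52 to -0.13 for *Car4*, -0.70 to -0.23 for *Car9* and -0.44 to -0.054 for *Car14*.

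Correlations of deviations between same-numbered mice of the 2 groups ran from -0.278 to 0.264, with 3 of 10 over 0.1. Of the mice, 3 of 10 were best with their own number. The labels do not say that a number ties mice, and pairing was not tested, so the main fit left it out. With the replicate block alone 1 member was called and 8912 genes in all. Depth limits *Car9* and *Car13* most.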

Other observations

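Platelet and megakaryocyte markers differed between the diets in all 8 genes tested, each higher in IDA mice, where 35% of all tested genes were higher. The markers' summed level was 43.1 to 120.6 CPM in control and 96.3 to 411 CPM in IDA mice. *Itga2b*, the platelet fibrinogen receptor subunit, had a log2 fold change of 2.30 ± 0.33 (SE, adjusted p = 2.4e-06 by edgeR), and 2.41 with the length correction.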
